A study of Homo sapiens with 8 samples.

Results

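The S100 genes encode small proteins, most of which bind calcium. Here 10 of them, S100A2, S100A4, S100A6, S100A7, S100A8, S100A9, S100A10, S100A11, S100A14 and S100A16, were followed through the development of cisplatin resistance in squamous carcinoma cells. They were chosen by name and are 10 of the 35113 annotated genes matched in the files. All 10 lie on chromosome 1 in band 1q21, between positions 151982915 and 153616986 of GRCh38. A further 11 S100 genes were read alongside them.

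Most S100 proteins bind calcium through paired EF-hand loops and, on doing so, expose a surface that grips a partner protein. They work as dimers inside the cell, where they hold annexins, cytoskeletal proteins and other targets, and some are released to act on receptors such as RAGE and TLR4. Their cluster at 1q21 is interleaved with the genes of the cornified envelope, and many of its members are known as markers of squamous epithelium, where calprotectin (the dimer of S100A8 and S100A9) and psoriasin (S100A7) are induced in stressed or inflamed keratinocytes.

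RNA sequencing covered 4 groups of 2 libraries each. HPV- parental cells were the head and neck squamous carcinoma line UPCISCC89, and HPV- resistant cells were a clone grown out of that line after prolonged selection in cisplatin. HPV+ parental cells were the line UDSCC2, which carries human papillomavirus, and HPV+ resistant cells were likewise a clone of it, selected in a higher dose of the drug. Each resistant group was therefore 1 clone, so a change brought about by the drug and a property of the founding cell cannot be told apart, and each HPV status was represented by 1 line. All cells were cultured in the same low-glucose medium, and the clones were kept without drug after selection. Whether the 2 libraries within a group stem from different cultures is not stated, and the spread that p-values rest on may be technical. In bulk RNA, fewer expressing cells and less RNA per cell cannot be told apart.

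Library totals ran from 20250246 to 27341284 read pairs assigned to transcripts. Levels are given as CPM, which scales read pairs to library size after TMM, and as TPM, which also corrects for transcript length, wherever different genes are compared. A gene was called when edgeR's quasi-likelihood test gave a Benjamini-Hochberg adjusted p under 0.05 and the log2 fold change lay beyond 1 in either direction. Of the 10 members, 9 passed the filter on low counts and were tested; S100A7 did not. As to identity, the squamous keratin KRT14 was present in every library, at 5121 to 6547 CPM in HPV- parental, 221.5 to 281.9 CPM in HPV- resistant, 123.3 to 131.1 CPM in HPV+ parental and 46.3 to 61.0 CPM in HPV+ resistant cells, and was called lower in both resistant lines. CDH1, from the same list of squamous epithelial markers, was called higher in both, and the whole list is given below.

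The promoters of 4 members are printed because results below turn on them: S100A8 and S100A9 between HPV- parental and resistant cells, S100A6 between the lines, and S100A4, which had the largest fold change among the 3 members called within the HPV+ line. Each window runs from 250 bases before to 50 bases after the RefSeq start (GRCh38.p14), on the strand of the gene. Capitals mark matches to a TATA box (TATAAA), a C/EBP motif (TTNNGNAA) or a GC box (GGGCGG), searched on both strands, together with the AP-1 motif (TGANTCA).
S100A8: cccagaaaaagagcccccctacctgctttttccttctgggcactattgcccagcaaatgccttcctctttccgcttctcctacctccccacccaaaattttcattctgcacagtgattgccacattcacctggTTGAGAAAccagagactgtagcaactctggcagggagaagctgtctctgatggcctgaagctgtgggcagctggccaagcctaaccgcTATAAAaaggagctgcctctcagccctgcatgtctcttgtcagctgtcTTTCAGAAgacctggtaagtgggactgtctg
S100A9: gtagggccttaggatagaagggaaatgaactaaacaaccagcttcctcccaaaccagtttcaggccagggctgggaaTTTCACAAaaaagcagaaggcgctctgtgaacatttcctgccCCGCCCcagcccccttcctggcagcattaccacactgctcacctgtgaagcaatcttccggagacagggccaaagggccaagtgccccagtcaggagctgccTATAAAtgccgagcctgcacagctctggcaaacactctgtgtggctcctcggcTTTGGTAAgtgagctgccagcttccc
S100A6: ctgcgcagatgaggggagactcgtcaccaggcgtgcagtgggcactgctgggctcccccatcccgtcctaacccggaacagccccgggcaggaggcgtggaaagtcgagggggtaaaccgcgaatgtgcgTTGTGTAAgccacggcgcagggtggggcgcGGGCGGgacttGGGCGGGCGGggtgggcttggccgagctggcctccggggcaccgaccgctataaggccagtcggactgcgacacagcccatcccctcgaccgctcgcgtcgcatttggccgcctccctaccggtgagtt
S100A4: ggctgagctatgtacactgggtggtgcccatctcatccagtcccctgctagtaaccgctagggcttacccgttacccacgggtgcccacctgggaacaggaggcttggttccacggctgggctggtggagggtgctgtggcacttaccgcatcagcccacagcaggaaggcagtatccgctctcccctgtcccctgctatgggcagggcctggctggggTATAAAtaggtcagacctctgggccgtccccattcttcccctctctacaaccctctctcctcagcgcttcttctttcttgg

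The S100A8 window is chr1:153391024-153391323 on the minus strand and the S100A9 window chr1:153357604-153357903 on the plus strand. Both genes of the calprotectin pair held a TATA box 29 bases before the start and 2 C/EBP matches each, at positions -117 and 20 in S100A8 and -173 and 25 in S100A9. The TATA box was found in 11.5% and the C/EBP motif in 36.8% of all 35116 RefSeq promoter windows of the same length, so neither is rare. The S100A6 window, chr1:153535942-153536241 on the minus strand, held 3 GC boxes at -90, -79 and -75, the last 2 overlapping, and 1 C/EBP match at -120. GC boxes were present in 45% of windows. The S100A4 window, chr1:153545757-153546056 on the minus strand, held a TATA box at -31. It is not the window of the transcript taken as main for S100A4, which starts 709 bases downstream at position 153545097. An AP-1 match was found in S100A2 alone among the members, at -52, against 7.71% of all windows. No match in these letters was found for S100A14 and S100A16. A match describes the sequence and does not mark a bound site.

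In HPV- resistant cells, most members were lower than in their parental cells. Of the 9 tested, 5 were called lower and none higher, against 5.22% called lower and 6.06% called higher among the 15221 genes tested. The members were chosen with earlier results of these data known. S100A8 passed the filter on low counts through HPV- parental cells alone, so it could only come out lower. At adjusted p alone, 8 of 9 were lower, against 14.1% of all genes. The median log2 fold change of the members was -1.09, and that of all genes 0.04. In HPV+ resistant cells, 3 of 9 were called lower and none higher, against 4.60% and 3.40% of all genes, and 4 of 9 were lower at adjusted p alone, against 10.5%. Their median was -0.75, or -0.92 with S100A8 left out for want of any read and S100A6 set to its bound, and the median of all genes was 0. At an unadjusted p under 0.05, 1 member, S100A9, was higher in HPV+ resistant cells, and DESeq2 called it. S100A2 and S100A16 were the members called lower in both lines.

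**Figure D1:**
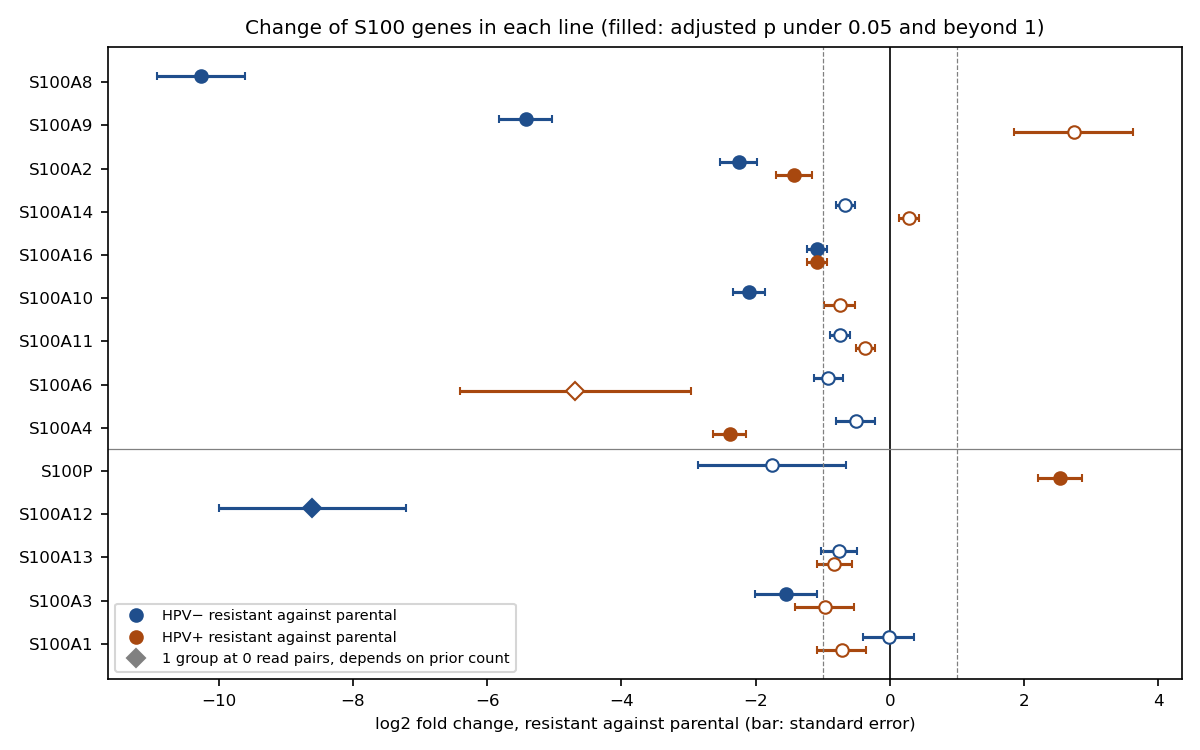
Log2 fold change of S100 genes (horizontal axis) in resistant against parental cells of each line, with bars for the standard error. Filled symbols were called, and diamonds mark genes with 0 read pairs in 1 group, whose position depends on the prior count. S100A8 at -10.27 and S100A9 at -5.43 lie farthest to the left for HPV- cells, apart from S100A12, and S100P at 2.53 is the gene called higher in HPV+ cells.

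Among the members tested in HPV- cells, the calprotectin pair changed most. S100A8 stood at 218.4 and 103.5 CPM in the HPV- parental libraries, against 0.15 and 0.10 CPM (3 and 2 read pairs) in the HPV- resistant libraries. No read pair was assigned to it in any of the 4 HPV+ libraries, where 3 read pairs over a group would have been 0.0578 to 0.0588 CPM. The HPV- groups did not overlap, and S100A8 was 1250-fold lower in resistant cells by read pairs (95% interval 534 to 3840, counting error only). The fitted log2 fold change was -10.27 ± 0.66 (standard error, edgeR adjusted p = 0.000595).

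S100A9, the other subunit, stood at 300.3 and 192.6 CPM in HPV- parental and 7.66 and 3.79 CPM in HPV- resistant cells. Its fall was -5.43 ± 0.40 on the log2 scale (edgeR adjusted p = 0.00014). Both genes therefore fell, S100A8 further than S100A9: the ratio of S100A8 to S100A9 in TPM was 1.47 and 1.14 in the parental libraries and 0.0424 and 0.0547 in the resistant ones. Together they made up 19.7% and 16.1% of the members' TPM in HPV- parental cells and 0.87% and 0.369% in HPV- resistant cells. The study labels both genes in its volcano plot of these same libraries, so this is no independent evidence of their direction.

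In the HPV+ line, S100A9 was near the limit of detection, with 2 and 4 read pairs in the parental libraries (0.08 and 0.15 CPM) and 13 and 28 in the resistant ones (0.52 and 1.08 CPM). The groups did not overlap, and the level was 6.95-fold higher in resistant cells (95% interval 2.94 to 20, counting error only). The fitted log2 fold change of 2.74 ± 0.89 missed the threshold (edgeR adjusted p = 0.0676). It passed with DESeq2 (adjusted p = 0.000781), with edgeR on the 4 HPV+ libraries (0.0219), with a transcript length offset (0.05), and when HPV- resistant replicate 1 or 2 was left out (0.0308 and 0.0307). Over all alternatives, adjusted p ran from 0.000781 to 0.304. The change in S100A9 differed between the lines by 8.17 ± 0.90 on the log2 scale (interaction term, edgeR adjusted p = 0.00104). For S100A8 such a difference could not be estimated, since both HPV+ groups were at 0.

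S100A7, or psoriasin, was scarcely present. The HPV- parental libraries held 3 and 6 read pairs of it, the HPV+ parental libraries 0 and 2, and the resistant libraries of both lines none. The HPV- parental count of 9 against 0 gives a level at least 2.93-fold lower in resistant cells, taking 3 read pairs over the group as the floor. This bound leaves out counting error in the 9 read pairs, and no test was made.

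**Figure D2:**
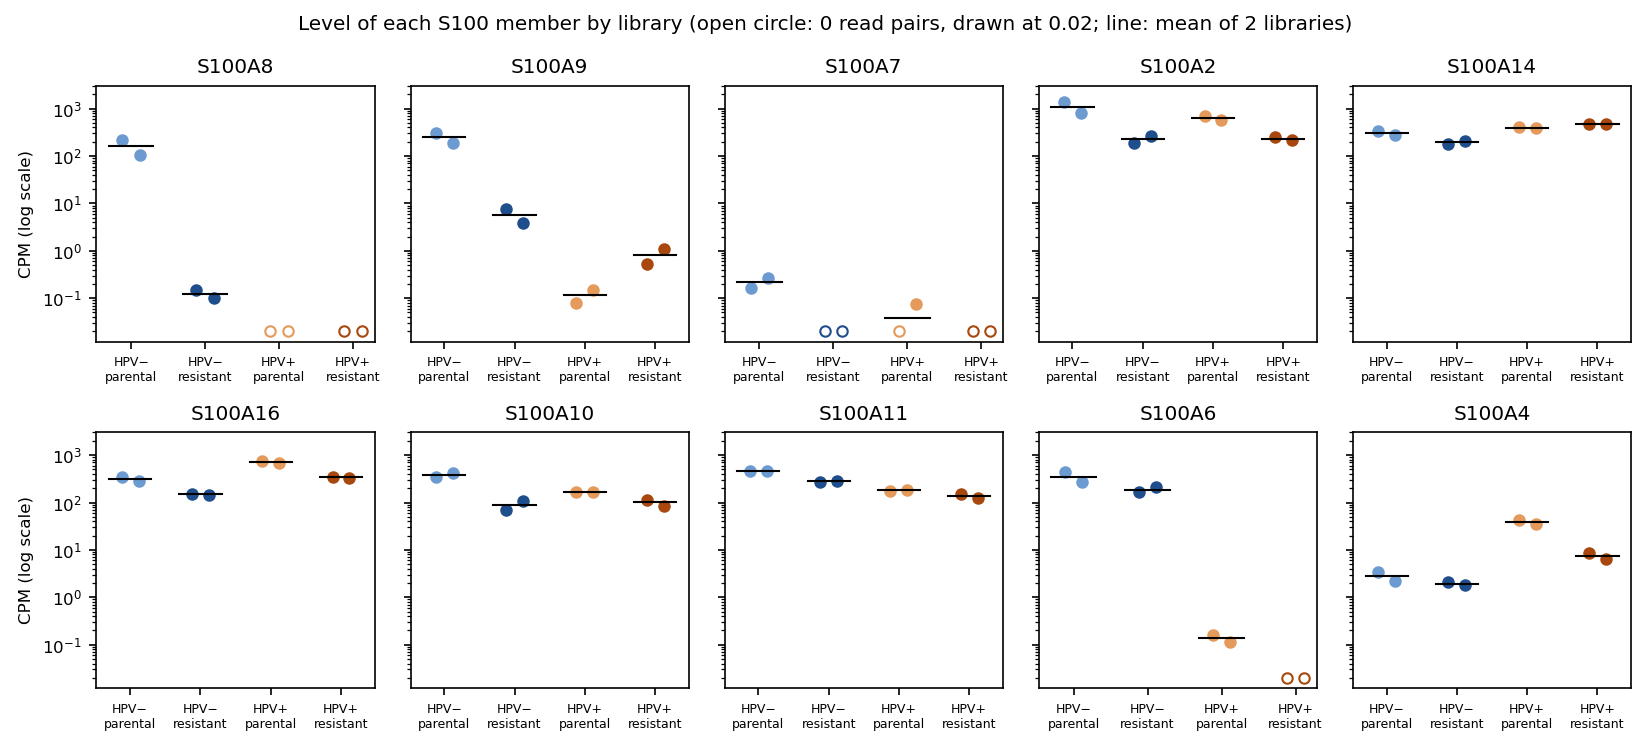
CPM of each member (vertical axis, log scale) in the 8 libraries, by group; points are libraries, lines are means of 2, and open circles are libraries with 0 read pairs, drawn at 0.02. S100A8 drops from above 100 CPM to about 0.1 CPM in HPV- cells, and S100A6 is close to 0 in the 4 HPV+ libraries.

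Among the members linked to squamous epithelium, S100A2, a nuclear S100 protein known as a target of p63, was the most abundant in both parental lines. It measured 1350 and 794.7 CPM in HPV- parental cells and 185.1 and 264.3 CPM in HPV- resistant cells, a log2 fold change of -2.25 ± 0.27 (edgeR adjusted p = 0.000542). In HPV+ cells it went from 688.4 and 564.5 CPM to 249.8 and 215.6 CPM, a log2 fold change of -1.43 ± 0.26 (edgeR adjusted p = 0.00659). Groups did not overlap in either line. The HPV+ call was lost on leaving out HPV+ parental replicate 1 (adjusted p = 0.0583) or HPV+ resistant replicate 2 (0.0562). The 2 changes differed by 0.83 ± 0.37 (95% interval 0.01 to 1.65), and the adjusted p of 0.157 missed the threshold.

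S100A16, a widely expressed member that lies 1109 bases from S100A14, fell by nearly the same amount in both lines. Its level was 344.1 and 286.5 CPM in HPV- parental against 151.1 and 144.6 CPM in HPV- resistant cells, and 751.7 and 684.2 CPM in HPV+ parental against 353.4 and 325.1 CPM in HPV+ resistant cells. The log2 fold changes were -1.09 ± 0.15 (edgeR adjusted p = 0.000799) and -1.08 ± 0.15 (adjusted p = 0.00135), and the difference between them was 0.01 with a 95% interval from -0.45 to 0.47. Both values sit just beyond the minimum fold change. Without HPV- parental replicate 1 the HPV- value was -0.96 and no longer counted as called.

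S100A14, its close neighbour and an epithelial member, behaved differently. It measured 334.3 and 276.5 CPM in HPV- parental and 182.8 and 203.4 CPM in HPV- resistant cells, a log2 fold change of -0.66 ± 0.15 with an adjusted p of 0.00861 (edgeR), short of the minimum fold change. In HPV+ cells it stood at 399.8 and 386.1 CPM before and 477.2 and 482.5 CPM after selection. That change, 0.29 ± 0.15, missed the threshold (edgeR adjusted p = 0.195), but the 2 lines differed by 0.95 ± 0.21 (95% interval 0.49 to 1.41, adjusted p = 0.0112). Neither this difference nor the HPV- fall passed at adjusted p in every alternative. Over the alternatives the difference ran from 0.82 to 1.14 and the HPV- change from -0.86 to -0.53.

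The annexin partners are members that link membranes and the cytoskeleton through annexin proteins. S100A10, or p11, which forms a tetramer with annexin A2, measured 345.7 and 417.8 CPM in HPV- parental and 68.8 and 109.4 CPM in HPV- resistant cells. The fall was -2.10 ± 0.23 on the log2 scale (edgeR adjusted p = 0.000354). In the HPV+ line it went from 167.3 and 169.6 CPM to 115.3 and 85.2 CPM, a log2 fold change of -0.75 ± 0.23 that passed at adjusted p alone (0.0454). It missed even that threshold in fits without any 1 of the 4 HPV+ libraries or without HPV- parental replicate 1, with RLE factors and with a length offset, and over all alternatives adjusted p ran from 0.00207 to 0.25. The fall was larger in the HPV- line by 1.35 ± 0.32 (interaction, edgeR adjusted p = 0.0177). That call was lost without HPV+ parental replicate 1, HPV+ parental replicate 2 or HPV+ resistant replicate 1 (adjusted p = 0.0584, 0.0596 and 0.0667).

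S100A11, the partner of annexin A1, was among the steadier members. Its level was 460.9 and 473.3 CPM in HPV- parental and 275.8 and 282.4 CPM in HPV- resistant cells, against 171.9 and 186.9 CPM in HPV+ parental and 152.1 and 125.8 CPM in HPV+ resistant cells. The log2 fold changes were -0.74 ± 0.14 (edgeR adjusted p = 0.0044) and -0.37 ± 0.14 (adjusted p = 0.0985), neither of which was called. Reads assigned to its processed pseudogenes came to at most 7 read pairs in any library.

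S100A6, or calcyclin, separated the 2 lines. It measured 430.4 and 273.9 CPM in HPV- parental and 164.3 and 208.5 CPM in HPV- resistant cells. In HPV+ parental libraries only 4 and 3 read pairs were assigned to it, and in HPV+ resistant libraries none. The HPV+ parental level was 2560-fold below the HPV- parental level (95% interval 1240 to 6380, counting error only; edgeR adjusted p = 6.6e-08), and the HPV+ resistant level at least 3170-fold below the HPV- resistant level. S100A6 lies 7368 bases from S100A4, which was well above 0 in the HPV+ line. Within the HPV- line its log2 fold change was -0.92 ± 0.22 (edgeR adjusted p = 0.0155), not called, though it was -1.28 and called without HPV- parental replicate 2 and -1.11 and called without HPV- resistant replicate 2. With 3 read pairs over the group as the floor, the 7 against 0 in HPV+ cells give a level at least 2.29-fold lower in resistant cells. This bound leaves out counting error in the 7 read pairs, and the edgeR adjusted p was 0.0922. All 7 were assigned to a transcript that held 4.69% to 5.80% of S100A6 TPM in HPV- cells, and none to the transcript that held 93.9% to 95% there.

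S100A4, a member tied to cell motility and myosin binding, changed mainly in the HPV+ line. It stood at 43.0 and 34.9 CPM in HPV+ parental and 8.53 and 6.36 CPM in HPV+ resistant cells, a log2 fold change of -2.39 ± 0.25 (edgeR adjusted p = 0.00033). HPV- cells had 3.37 and 2.16 CPM before and 2.07 and 1.80 CPM after selection, a log2 fold change of -0.51 ± 0.29 (adjusted p = 0.217). The lines differed by -1.88 ± 0.38 (interaction, adjusted p = 0.00771), a call lost without HPV+ parental replicate 1 (adjusted p = 0.063).

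The fall of S100A4 was uneven across its transcripts. The transcript starting at chr1 position 153545806, whose promoter window is printed above, held 23.4% and 28.5% of S100A4 TPM in the HPV+ parental libraries and 2.18% and 0% in the resistant ones. By Salmon's estimates its read pairs went from 182.2 and 188.9 to 3.20 and 0. The transcript starting downstream at position 153545063 went from 392.5 and 300.6 to 113.9 and 92.4 read pairs. In HPV- cells, the upstream transcript held 37.0% to 57.6% of S100A4 TPM, on 12.5 to 18.3 read pairs a library. The transcript taken as main for S100A4, starting at position 153545097, is not described here. Salmon divides shared reads between overlapping transcripts by estimate, so the values above describe its assignment, and they were not tested.

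Some markers of fibroblasts were lower beside S100A4. The 8 fibroblast markers summed to 3067 and 3390 CPM in HPV+ parental and 3221 and 1452 CPM in HPV+ resistant libraries, against 5.23 to 13.1 CPM in HPV- libraries. Of 6 tested in the HPV+ line, 2 were called lower and none higher, against 4.60% and 3.40% of all genes. They were LUM and DCN, which encode matrix proteoglycans, at -1.76 ± 0.23 (edgeR adjusted p = 0.00178) and -1.78 ± 0.38 (0.0339). DCN lost its call without either HPV- parental or either HPV+ parental library. With 1 library left out, its value ran from -2.45 to -1.33. COL3A1, at 1358 to 3079 CPM, was the main part of that sum and changed by -0.36 ± 0.38 (adjusted p = 0.568). The others tested were not called either, COL1A1 at -0.06 ± 0.26, THY1 at -0.21 ± 0.56 and COL1A2 at 1.46 ± 1.44, and the summed level of HPV+ resistant replicate 1 lay between those of the parental libraries. The defining receptor genes PDGFRA and PDGFRB had at most 3 and 0 read pairs in any HPV+ library. Their part in the change of S100A4 was not tested.

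Beyond these members, S100P, on chromosome 4 at 6693878 to 6697170, moved the other way. This calcium-binding protein is known from placenta and from epithelial tumours. Its read pairs numbered 91 and 76 in the HPV+ parental libraries, then 369 and 587 after selection (3.58 and 2.87, then 14.6 and 22.7 CPM), while HPV- libraries had 0 to 2 read pairs. The HPV+ rise was 2.53 ± 0.33 on the log2 scale (edgeR adjusted p = 0.00106). The difference from the HPV- line, 4.29 ± 1.16 (adjusted p = 0.0307), was lost when any of 6 libraries was left out, that is, each but HPV- resistant replicate 1 and HPV+ resistant replicate 1 (adjusted p = 0.0533 to 0.0883). Without HPV- resistant replicate 1 it was 6.80, a fitted value that depends on the prior count, since the HPV- resistant library left held 0 read pairs. The HPV- parental and resistant groups held 4 and 1 read pairs in all.

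S100A12, or calgranulin C, which lies between S100A9 and S100A8, had 50 and 35 read pairs in HPV- parental libraries and none elsewhere. It was at least 27.6-fold lower in HPV- resistant cells and was called by edgeR (adjusted p = 0.00461), though not by DESeq2 (0.222). S100A3, a hair-follicle member that overlaps S100A4 on the same strand, went from 136 and 68 to 40 and 30 read pairs in HPV- cells (-1.55 ± 0.46, edgeR adjusted p = 0.0304). That call was lost without HPV- parental replicate 1, HPV- resistant replicate 1 or HPV- resistant replicate 2 (adjusted p = 0.254, 0.0923 and 0.142). S100A13 changed by -0.76 ± 0.26 in HPV- cells (adjusted p = 0.0601) and -0.83 ± 0.26 in HPV+ cells (0.0545). The HPV- value was -0.21 without HPV- parental replicate 1, and -1.24 and called without HPV- parental replicate 2 (adjusted p = 0.000211). S100A1 changed by -0.02 ± 0.38 (adjusted p = 0.996) and -0.72 ± 0.36 (0.194); it overlaps S100A13 on the opposite strand, and whether the counting used strand is not given in the sources used here. S100A5 had at most 2 read pairs in a library, and S100A7A, S100A7L2, S100B, S100G and S100Z had none. In all, 2 of the 5 tested among these other S100 genes were called lower in HPV- resistant cells, against 5.22% of all genes. S100A12 passed the filter on low counts through HPV- parental cells alone and could only come out lower. In HPV+ resistant cells 1 of the 5 was called higher, against 3.40% of all genes.

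Per transcript length, the members together made up 1.02% and 0.854% of all TPM in HPV- parental libraries and 0.323% and 0.369% in HPV- resistant libraries. For HPV+ cells the shares were 0.451% and 0.427% before selection, then 0.301% and 0.262%. In each line the parental libraries lay above the resistant ones. By mean TPM, S100A2 (2885) led in HPV- parental cells, followed by S100A6 (1749), S100A11 (1465), S100A8 (970.5), S100A10 (889.1) and S100A9 (730.7). In HPV- resistant cells S100A6 (1077) and S100A11 (998.2) came before S100A2 (675.9), and S100A8 (0.92) had dropped to the ninth place. HPV+ parental cells were led by S100A2 (1790), S100A16 (855.1), S100A11 (643.2) and S100A14 (537.8), and HPV+ resistant cells by S100A2 (793.1) and S100A14 (722.9).

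**Figure D3:**
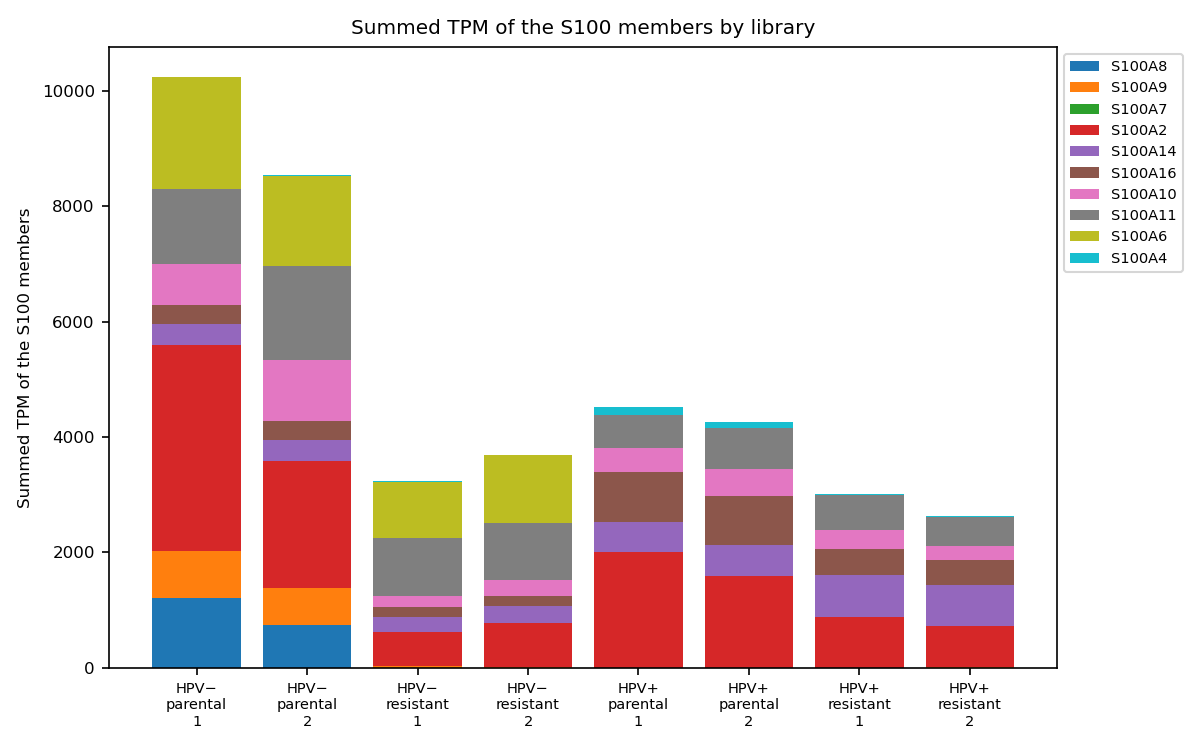
Summed TPM of the 10 members (vertical axis) in each of the 8 libraries, stacked by gene. The HPV- parental bars are the tallest and are the ones that hold visible S100A8 and S100A9, S100A6 is visible in the HPV- bars alone, and S100A2 narrows in both resistant lines.

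Between the untreated lines, 2 of 9 members were called higher in HPV+ than in HPV- parental cells and 5 lower, against 17.7% and 19.3% of all genes. S100A4 (log2 difference 3.82 ± 0.27) and S100A16 (1.19 ± 0.15) were higher. S100A6, S100A8, S100A9, S100A10 (-1.18 ± 0.23) and S100A11 (-1.38 ± 0.14) were lower. S100A9 was 2090-fold lower by read pairs (95% interval 962 to 5710), and S100A8 at least 2700-fold lower. S100A6 and S100A8 passed the filter on low counts through HPV- cells alone, so they could only come out lower in HPV+ cells. Between the resistant clones, 3 were called higher in HPV+ cells and 3 lower, against 16% and 20% of all genes. S100A14 joined the higher group, at 1.31 ± 0.15. S100A2, at -0.78 between the parental lines (adjusted p = 0.0269), and S100A10 lay at 232.7 ± 24.2 and 100.2 ± 21.3 CPM (SD, n = 2) in HPV+ resistant and at 224.7 ± 56.0 and 89.1 ± 28.7 CPM in HPV- resistant cells. Their libraries overlapped, with log2 differences of 0.05 ± 0.26 and 0.17 ± 0.23. S100A11 was lower by 1.01 ± 0.14, at the edge of the minimum fold change. In the test of the difference between the lines, 4 of 9 members passed at adjusted p (S100A4, S100A9, S100A10 and S100A14), against 16.7% of all genes. Of these members, S100A9 alone passed in every alternative.

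Proteins that S100 dimers bind inside the cell were read next. Of 17 partner genes tested, 1 was called lower in each line and none higher, a share near the 5.22% and 4.60% called lower among all genes in HPV- and HPV+ cells. FABP5, a fatty acid carrier known to bind psoriasin, went from 193.4 and 171.6 to 32.7 and 42.4 CPM in HPV- cells (-2.28 ± 0.16, edgeR adjusted p = 2.76e-05), while in HPV+ cells it stood at 189.1 and 187.0 before and 250.9 and 244.3 CPM after. ANXA2, the partner of S100A10, went from 1176 and 1219 to 592.6 and 461.0 CPM in HPV+ cells (-1.19 ± 0.17, adjusted p = 0.00147) and from 1706 and 1657 to 895.6 and 993.9 CPM in HPV- cells (-0.83 ± 0.16, adjusted p = 0.00506, short of the minimum fold change). So in each line S100A10 and ANXA2 were both lower in resistant cells at adjusted p alone, with the limits on S100A10 in HPV+ cells given above. ANXA1, the partner of S100A11, changed by -0.82 ± 0.14 in HPV- cells (adjusted p = 0.00212) and 0.13 ± 0.14 in HPV+ cells (0.549).

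Receptors for released S100 proteins gave counts near those of all genes. Of 9 tested, none was called by edgeR in HPV- cells, against 6.06% higher and 5.22% lower among all genes, and ALCAM (0.72 ± 0.15, adjusted p = 0.00673) and ERBB2 (0.56 ± 0.14, 0.0147) passed at adjusted p short of the minimum fold change. In HPV+ cells 1 was called higher, against 3.40% of all genes, namely MCAM, a cell adhesion receptor of S100A8 and S100A9, at 1.17 ± 0.21 (edgeR adjusted p = 0.00519; 0.069 without HPV+ parental replicate 1). At adjusted p alone, the receptor gene BSG was lower in HPV+ resistant cells (-0.78 ± 0.21, edgeR adjusted p = 0.0302). Its mean went from 1142 to 665.1 CPM, short of the minimum fold change. TLR4 had 0 read pairs in every library, and AGER, the gene of RAGE, at most 33.

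Regulators of epidermal genes were called in both directions. Of 28 tested, 2 were called higher and 6 lower in HPV- resistant cells, against 6.06% and 5.22% of all genes. In HPV+ resistant cells 5 were called higher and 4 lower, against 3.40% and 4.60%. The 2 higher in HPV- cells are near the share of all genes. ZNF750, a repressor and driver of late epidermal differentiation, went from 123 and 187 read pairs to 6 and 6 in HPV- cells (-4.62 ± 0.52, edgeR adjusted p = 0.000349) and from 6 and 20 to 116 and 114 in HPV+ cells (3.17 ± 0.48, adjusted p = 0.00205). FOSL1, an AP-1 subunit, went from 259.0 and 307.7 to 23.2 and 47.7 CPM in HPV- cells (-3.00 ± 0.36, adjusted p = 0.00114), while in HPV+ cells it stood at 3.73 and 3.96 CPM before and 5.95 and 10.5 CPM after. That change, 1.09 ± 0.39, missed the threshold (adjusted p = 0.0944), but it was called with DESeq2 (0.00532), with edgeR on the 4 HPV+ libraries (0.0113) and without HPV- resistant replicate 1 or 2 (0.025 and 0.0243). KLF4, a barrier factor, fell in both, at -1.27 ± 0.19 (adjusted p = 0.00114) and -2.77 ± 0.18 (3.41e-05). Also called in HPV- cells were NOTCH1 (1.37 ± 0.15), IL20RA (1.89 ± 0.36) and OVOL1 (-2.68 ± 0.28), and in HPV+ cells PRDM1 (2.22 ± 0.48), JUNB (-1.33 ± 0.28) and GRHL1 (-1.03 ± 0.29). PRDM1 lost its call without any of the 4 HPV+ libraries (adjusted p = 0.0552 to 0.113). JUNB lost it without HPV+ parental replicate 1 or HPV+ resistant replicate 1 (0.0922 and 0.0581) and with edgeR on the 4 HPV+ libraries (0.12). GRHL1 lost it without HPV+ parental replicate 1, HPV+ parental replicate 2 or HPV+ resistant replicate 2 (0.105, 0.222 and 0.179), with a length offset (0.196), and with upper-quartile factors, where it was -0.98. The C/EBP genes CEBPA, CEBPB and CEBPD were not called in either line.

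Other antimicrobial genes of epithelium were called in both directions in HPV- cells. Of 5 tested, 1 was called higher and 2 lower in HPV- resistant cells, against 6.06% and 5.22% of all genes, and 2 higher in HPV+ resistant cells, against 3.40%. PI3, the protease inhibitor elafin, went from 959 and 931 to 2 and 5 read pairs in HPV- cells (-8.01 ± 0.55, edgeR adjusted p = 3.35e-05). PI3 passed the filter on low counts through HPV- parental cells alone, so in the HPV- line it could only come out lower. SLPI, a related inhibitor, changed by -1.35 ± 0.36 in HPV- cells (adjusted p = 0.0205; 0.101 leaving out HPV- parental replicate 1 and 0.114 leaving out HPV- resistant replicate 2) and by 2.23 ± 0.41 in HPV+ cells (0.00633). LCN2, the iron-siderophore binder lipocalin 2, rose in both lines, from 4 and 3 to 65 and 218 read pairs in HPV- cells (5.32 ± 0.85, adjusted p = 0.00448; 0.0763 and 0.0776 without HPV- parental replicate 1 or 2) and from 9 and 15 to 828 and 1588 in HPV+ cells (6.66 ± 0.71, adjusted p = 0.00147).

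Around the members, the other genes of 1q21 were read as neighbours. Between S100A10 and S100A14, 9 genes outside the family were tested. In HPV- resistant cells 6 of them were called lower and none higher, against 5.22% and 6.06% of all genes. The 6 are genes of the cornified envelope and of bacterial recognition: IVL, SPRR1A, SPRR1B, SPRR2D, PGLYRP3 and PGLYRP4. SPRR1B, a small proline-rich envelope protein, went from 2266 and 2534 read pairs to 1 and 0. The other 5 had 19 to 45 read pairs a library before and none after, so they were at least 16.6-fold (IVL) to at least 26-fold (PGLYRP4) lower. IVL, SPRR1A, PGLYRP3 and PGLYRP4 averaged 1.23 to 1.99 CPM in HPV- parental cells and at most 0.235 CPM in any other group. They passed the filter on low counts through HPV- parental cells alone and could only come out lower, so part of the count of 6 was fixed by the filter. TCHH, HRNR and FLG, the fused-type S100 genes that carry an S100 domain in a long filament protein, were not called in either line. Their fitted values in HPV- cells were positive, at 1.07 ± 0.93, 0.80 ± 0.92 and 1.52 ± 0.65.

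In the HPV+ line the same 9 genes gave 3 called higher and none lower, against 3.40% and 4.60% of all genes. SPRR1B went from 6 and 14 to 45 and 41 read pairs (2.12, log2) and SPRR2D from 6 and 6 to 46 and 29 (2.64; adjusted p = 0.143, 0.132 and 0.0844 without HPV+ parental replicate 1, HPV+ parental replicate 2 or HPV+ resistant replicate 1). PGLYRP3 went from 0 and 0 to 5 and 7 read pairs, at least 4.07-fold higher, a call that ended without any 1 of the 4 HPV+ libraries (adjusted p = 0.0656 to 0.167), without HPV- parental replicate 1 or 2 (0.0547 and 0.0604) and with a length offset (0.0582). With genes at 0 set to their bound, the median of these neighbours was -4.38 in HPV- cells and 1.98 in HPV+ cells (8 genes, TCHH being at 0 in all HPV+ libraries). In the 1 Mb before the cluster, 28 genes were tested with a median of 0.01 in HPV- cells (none called) and 0.03 in HPV+ cells (2 called lower). In the 1 Mb after it, 25 were tested with medians of -0.09 (1 called higher, SLC27A3 at 2.02) and -0.24 (1 called lower).

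**Figure D4:**
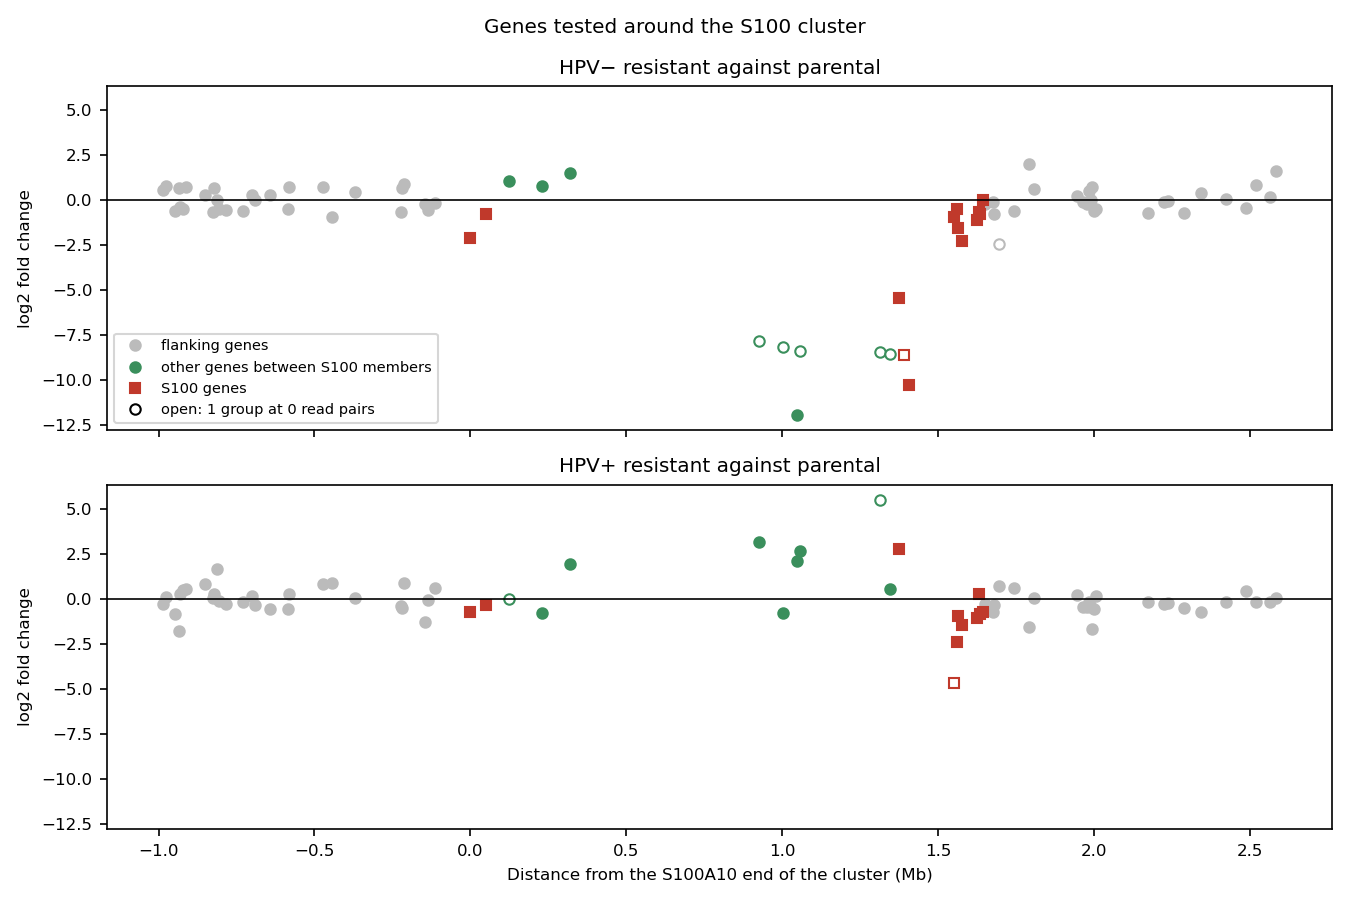
Log2 fold change (vertical axis) of tested genes in the S100 cluster and 1 Mb to each side, by distance from the S100A10 end of the cluster in Mb, for each line; open symbols have 0 read pairs in 1 group and depend on the prior count. In HPV- cells the genes from IVL to S100A8 lie far below 0 while the flanking genes scatter about medians of 0.01 and -0.09, and in HPV+ cells S100A9 and most of the envelope genes lie above 0.

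Markers of other cells were read beside these results. Of 10 squamous epithelial markers tested, 1 was called higher and 4 lower in HPV- resistant cells, against 6.06% and 5.22% of all genes. CDH1 was higher (1.01, short of the minimum fold change in 6 alternatives). KRT14 (-4.53 ± 0.23), PKP1 (-2.13 ± 0.16), SFN (-1.45 ± 0.18) and KRT5 (-1.27 ± 0.22) were lower. Of the rest, DSG3 (-0.73), PERP (-0.68) and TP63 (-0.68) were lower at adjusted p alone, and EPCAM (0.14) and TRIM29 (0.05) were not. The list summed to 15390 and 15410 CPM in HPV- parental and 4289 and 5304 CPM in HPV- resistant libraries. Most of the parental sum was KRT5 and KRT14, at means of 6404 and 5834 CPM. In HPV+ cells the list summed to 4686 and 4906 CPM before and 5735 and 4704 CPM after, and the groups overlapped. Its part in the members' change was not tested. In HPV+ resistant cells 1 was called higher (CDH1, 2.18 ± 0.17) and 1 lower (KRT14, -1.25 ± 0.20), against 3.40% and 4.60% of all genes. EPCAM (0.81), TRIM29 (-0.73) and PKP1 (-0.62) passed at adjusted p alone. KRT5 (0.34), TP63 (0.47), DSG3 (0.23), PERP (0.09) and SFN (-0.55) did not. Among markers of myeloid cells, the other known source of calprotectin, PTPRC, TYROBP, SPI1 and MPO had 0 to 4 read pairs in every library. ITGAM averaged 0.39 CPM in HPV- parental and 1.35 CPM in HPV- resistant cells (1.77 ± 0.73, edgeR adjusted p = 0.108). LYZ averaged 1.23 to 1.82 CPM over the groups. Of 4 tested, 1 was called higher and 1 lower in HPV- resistant cells, against 6.06% and 5.22% of all genes. In HPV+ resistant cells 1 was called higher, against 3.40%. The 12 myeloid markers summed to 156.4 to 164.0 CPM in HPV- parental and 56.1 to 81.4 CPM in HPV- resistant libraries, most of it CD68 (-1.62 ± 0.27 in HPV- cells, edgeR adjusted p = 0.0033), and to 11.2 to 18.7 CPM in HPV+ libraries. CD14 was called higher in both lines, at 1.53 and 2.40, and lost both calls when libraries were left out, in the HPV- line HPV- parental replicate 2 (adjusted p = 0.0781) or HPV- resistant replicate 1 (0.139), and in the HPV+ line any of its 4 libraries (0.0662 to 0.229). Of 6 melanocyte markers, 3 were tested and none called.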

How the data were processed

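PolyA RNA from 8 libraries was sequenced in 150 bp pairs on a NovaSeq. Transcript abundance was estimated by the authors in Salmon on GRCh38, whose version and gene annotation were not given in the sources used here. Each deposited file lists, per transcript, an estimated count of read pairs and TPM. Of 187432 transcripts, 172550 matched GENCODE release 44 by identifier and were summed by gene, and 4.33% to 5.13% of read pairs fell on the rest and were left out. Summed estimated counts were rounded and tested in edgeR 4.0.16 (R 4.3.3) with filterByExpr, TMM scaling and robust quasi-likelihood fits over all 8 libraries, 1 coefficient a group. Promoter windows came from RefSeq.

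The members and all gene lists were chosen with earlier results of these data known. Named genes were every member, every other S100 gene with a read, up to 3 genes per direction with the smallest p among those called in each further list and in the neighbourhood, and the 5 genes most like S100A8 and S100A9. A regulator that the rule names is not reported here, though it stays in the counts. FOSL1, the HPV- value of KLF4, KRT5, the paired annexin values, the uncalled C/EBP and marker genes and the remaining called neighbours were named after their values were seen. Alternatives were DESeq2 1.42.0, edgeR on 4 libraries, other scaling factors, a length offset, other filters, no minimum fold change, a block for replicate number, and fits without each library in turn. Standard errors were taken as the log2 fold change over the root of F. Intervals on read pairs are exact (Clopper-Pearson) and cover counting error only. Libraries of a group had a Pearson r of 0.975 to 0.988 across genes and differed beyond sampling noise.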

Additional observations from a re-analysis of the deposited data

Results flagged for a closer look

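For 5 S100 genes the change in HPV+ cells differed from that in HPV- cells by the interaction term of the edgeR fit. The difference (HPV+ change minus HPV- change, log2) was 8.17 for S100A9, 4.29 for S100P, 0.95 for S100A14, -1.88 for S100A4 and 1.35 for S100A10. The S100A9 value rests on 6 and 41 read pairs in the HPV+ groups, and the S100P value on 4 and 1 in the HPV- groups. For S100A9, S100A14 and S100P the fitted changes had opposite signs in the 2 lines; of these, the falls of S100A9 and S100A14 in HPV- cells and the rise of S100P in HPV+ cells passed at adjusted p. The differences of S100A4, S100A10, S100A14 and S100P, and the fall of S100A14 in HPV- cells, did not pass in every alternative. Each line is a single comparison of 1 clone with its parental cells.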

How the results depend on the processing

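No S100 value changed direction where it was called. Of 1095 values of single S100 genes under an alternative, 1040 kept their side of the threshold, 25 gained a call and 30 lost it; of 938 values for the other named genes, 868 kept theirs, 9 gained and 61 lost. With no minimum fold change, 8 members were called in HPV- resistant cells instead of 5. DESeq2 called 5 members in HPV+ resistant cells (1 higher, 4 lower) instead of 3, and 1 other S100 gene in HPV- resistant cells instead of 2, as did a filter of 5 CPM. Leaving out 1 library gave 4 to 6 members in HPV- cells, 2 to 4 in HPV+ cells, 2 to 5 for the difference between the lines, 7 to 8 between parental lines and 5 to 7 between resistant clones. For the other S100 genes it gave 1 to 3 in HPV- cells, 1 in HPV+ cells, 0 to 1 for the difference, 2 to 4 between parental lines and 1 between resistant clones. Over all alternatives, 1180 to 4081 genes were called in HPV- cells against 1718 in the analysis reported, and 566 to 2759 in HPV+ cells against 1218. The deviations of same-numbered libraries were weakly related (r from -0.0739 to 0.142 between groups). Such values cannot show whether the numbers pair the samples or mark a batch, and the labels do not say. The analysis reported used no pairing. With the replicate block, 5 members were called in HPV- cells and 4 in HPV+ cells, 3 for the difference, 7 between parental lines and 7 between resistant clones; 1616 genes were called in HPV- cells and 1123 in HPV+ cells. In HPV+ resistant against parental cells the block gave adjusted p = 0.0425 for S100A9 and 0.0264 for FOSL1, now called, and 0.0555 for GRHL1 and 0.0593 for PGLYRP3, no longer called, and S100A10 no longer passed at adjusted p alone. With a library left out, its partner alone stands for the group and is assumed to vary like the others. S100A7, S100A8 and S100A9 in HPV+ cells, S100A6 in HPV+ cells and S100P in HPV- cells are limited by depth, where 3 read pairs over a group come to 0.0578 to 0.0752 CPM. The cause of the changes between alternatives was not tested.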

Other observations

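Outside the family, the 5 genes whose levels over the 8 libraries were most like the mean of S100A8 and S100A9 were RAD54B (Pearson r 0.99), UTP6 (0.99), GLMN (0.99), DCUN1D5 (0.988) and PLGRKT (0.987), among 13179 genes ranked on log2 CPM. Their range was far narrower. DCUN1D5 stood at 104.4 CPM in HPV- parental, 40.1 in HPV- resistant, 25.9 in HPV+ parental and 25.2 in HPV+ resistant cells. UTP6 stood at 94.2, 54.9, 46.2 and 48.1 CPM in the same order, RAD54B at 42.1, 23.6, 19.8 and 22.3 CPM, GLMN at 20.6, 15.7, 13.5 and 13.9 CPM, and PLGRKT at 23.2, 10.9, 7.21 and 7.39 CPM. The 8 points fall into 4 groups that share a line or a clone, so the likeness is a description of these libraries.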
